A study of Mus musculus with 5 samples.

Results

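JunB binding and H3K27ac were mapped around 10 genes of the HGF, FGF, VEGF, PDGF and angiopoietin systems in mouse muscle stem cells (MuSCs). The receptors were Met, Fgfr1 and Fgfr4. The ligands were Hgf, Fgf2, Fgf7, Vegfa, Pdgfa, Pdgfb and Angpt2. The 10 genes were taken as a given list of names, out of 21911 protein-coding genes of the GENCODE M21 annotation on mm10. The list was chosen with earlier results of these data known. Every peak within 50 kb of any annotated transcription start site (TSS) of these genes was taken and split at 3 kb, the promoter limit. Peaks of the 4 JunB libraries that overlapped or touched were merged into sites. This gave 25 JunB sites near the 10 genes out of 18879 on chromosomes 1 to 19, X and Y. The H3K27ac library held 56 peaks in the same windows.

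The assay was CUT&RUN-seq, in which a nuclease guided by an antibody releases the DNA around a bound protein or a histone mark for sequencing. There were 3 JunB libraries labelled Young, 1 JunB library labelled Aged and 1 H3K27ac library with no age on its label, all from muscle. No genotype, strain, sex or age in months is on the labels. The design text of the series names vehicle-treated and MVC-treated mice for JunB, whereas the labels name young and aged mice, and the labels were followed here. The methods describe a sort of fresh MuSCs as VCAM+ CD45- CD31- SCA1- for mice of both ages and as GFP+ for JunB knockout mice and their controls. The peaks of young replicate 1 carry a GFP tag in their names and the other JunB lists do not, and the sort behind each library is not given in the sources used here. The methods call the H3K27ac data CUT&RUN-seq and also tie it to a reference epigenome project.

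HGF is stored in muscle matrix and, after injury, activates the receptor tyrosine kinase MET on satellite cells, which prompts them to leave quiescence. FGF2 is a mitogen for satellite cells and signals mainly through FGFR1 there, FGF7 acts on an epithelial form of FGFR2, and FGFR4 is found in differentiating myoblasts. VEGFA and ANGPT2 act on the endothelium of nearby capillaries, and PDGF dimers act on fibro-adipogenic and mural cells through PDGF receptors. JunB is a subunit of AP-1, a leucine zipper dimer that binds near-palindromes such as TGACTCA, searched here as TGANTCA. Acetylation of histone H3 lysine 27 marks active promoters and enhancers.

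The sites called in all 4 JunB libraries, and the promoter sites that carried H3K27ac, are shown as DNA because the comparison of young with aged MuSCs rests on them. By that rule 9 windows were taken, each with 50 bases on either side of the summit of the site's strongest JunB peak. Of these, 2 lay in annotated UTRs (Met site 2 and Fgfr1 site 6) and are described without their letters. Of the others, 6 follow, on the plus strand of mm10, with sites numbered along each gene's direction and AP-1 (TGANTCA), CRE (TGACGTCA), E-box (CAGCTG), GC box (GGGCGG) and CCAAT matches of either strand in capitals.
Fgfr1 site 5, chr8:25597679-25597779: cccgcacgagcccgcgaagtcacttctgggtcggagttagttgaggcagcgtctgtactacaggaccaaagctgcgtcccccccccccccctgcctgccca
Met site 3, chr6:17479125-17479225: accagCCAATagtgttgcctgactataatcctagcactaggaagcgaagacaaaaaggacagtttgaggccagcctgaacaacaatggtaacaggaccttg
Fgf2 site 1, chr3:37313353-37313453: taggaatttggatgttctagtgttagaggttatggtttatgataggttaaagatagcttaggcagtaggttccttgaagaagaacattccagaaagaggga
Fgfr1 site 3, chr8:25521654-25521754: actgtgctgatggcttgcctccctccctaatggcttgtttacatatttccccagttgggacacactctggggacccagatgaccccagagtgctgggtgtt
Fgfr1 site 2, chr8:25469067-25469167: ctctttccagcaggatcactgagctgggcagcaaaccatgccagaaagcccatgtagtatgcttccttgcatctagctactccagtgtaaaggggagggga
Met site 1, chr6:17418150-17418250: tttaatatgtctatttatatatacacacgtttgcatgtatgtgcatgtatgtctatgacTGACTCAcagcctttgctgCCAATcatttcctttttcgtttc

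Within these windows only Met site 1 held TGANTCA, centred 12 bp from its summit, and Met sites 1 and 3 each held a CCAAT match. The other 4 windows matched none of the 5 motifs. Among the sites with letters printed above, TGANTCA lay outside the summit window in Met site 3, Fgf2 site 1 and Fgfr1 site 2. The 27 bases around the match nearest to the summit, with the match in capitals, are shown for these sites and Met site 1. They are given because TGANTCA is the AP-1 motif searched here, with its central base left free.
Met site 3, chr6:17479377-17479403: agggaatgtcTGATTCActagtgagca
Fgf2 site 1, chr3:37313517-37313543: gcacagcagaTGAGTCAgaaaggaaga
Fgfr1 site 2, chr8:25469027-25469053: agactcagtcTGACTCAgtgttccctc
Met site 1, chr6:17418199-17418225: tgtctatgacTGACTCAcagcctttgc

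These matches lay 215 bp (Met site 3), 127 bp (Fgf2 site 1), 77 bp (Fgfr1 site 2) and 12 bp (Met site 1) from the summit. Fgfr1 sites 3 and 5, also printed above, held no TGANTCA. A match is a description of the letters and was not tested as a binding site.

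JunB peaks were found near 6 of the 10 genes, and they were mostly distal. Within 50 kb, peaks lay near 6 genes in young replicate 1, 6 in young replicate 2, 4 in young replicate 3 and 6 for the aged mice. The share of all protein-coding genes with a peak in that window was 40.4%, 27.5%, 23.4% and 58.4% in the same order, and 64.5% in any JunB library. Within 3 kb, peaks lay at 2 genes in young replicate 1 (Met and Fgfr1) and at Fgfr1 alone in the other 3 JunB libraries. The corresponding shares of all genes were 11.0%, 7.74%, 5.9% and 23.9%, with 12.7% for the merged young libraries (2 of these 10 genes) and 25.8% for any JunB library (2 of these 10 genes). With 10 genes, a count of 6 in the aged library lies near its background, and 1 at promoters lies below it. The aged list was the longest and had the largest share of all genes in both windows. The part of list length in these counts was not tested.

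**Figure D1:**
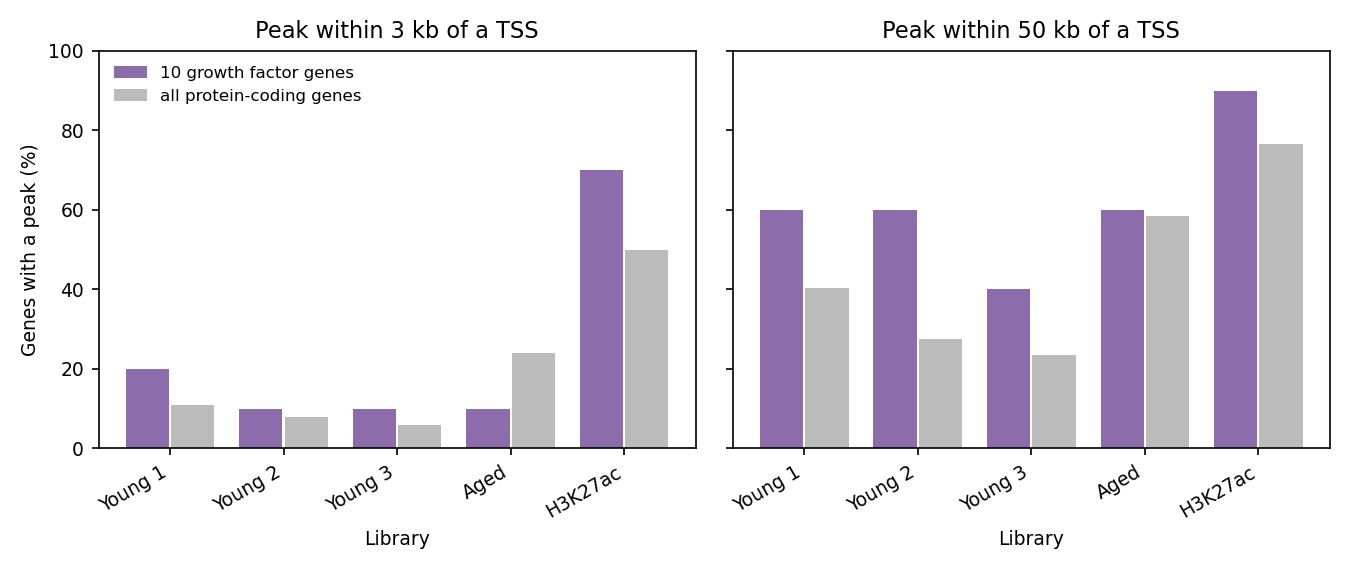
Bars give the share of genes, in percent, with at least 1 peak within 3 kb (left) or 50 kb (right) of a TSS in each of the 5 libraries, for the 10 growth factor genes and for all 21911 protein-coding genes. Within 50 kb, 6, 6 and 4 of the 10 genes had a peak in the young libraries, above the shares of all genes. In the aged library 6 did, close to its share. Met, Fgf2 and Fgfr1 have wide windows, and the counts of 10 genes were not corrected for this. Within 3 kb only Fgfr1 had a JunB peak in the aged library.

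Met and Fgfr1 together held 13 of the 25 sites. Met had 7 sites, a number reached by 1.41% of protein-coding genes, Fgfr1 had 6 (2.76%) and Fgf2 had 5 (5.35%). Fgfr4 had 3 sites (21.5% of genes with as many), and Pdgfa and Angpt2 had 2 each (37.9%). Hgf, Fgf7, Vegfa and Pdgfb had 0, as did 35.5% of protein-coding genes, and the median gene had 1 site. The windows of Met, Fgf2 and Fgfr1 were wider than those of most of the other genes, since their TSSs span 83173, 56195 and 56069 bp, and counts were not corrected for this. With TSSs of protein-coding transcripts only, Fgfr1 had 3 sites, and the other genes kept their counts. Where the nearest protein-coding TSS had to be one of these genes, Met kept 7 sites, and Fgfr1 and Fgf2 had 3 each. Fgfr4 and Pdgfa then had 1 each, and Angpt2 kept 2. Fgfr1 sites 4, 5 and 6 lie nearest to coding TSSs of Letm2 and Nsd3.

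**Figure D2:**
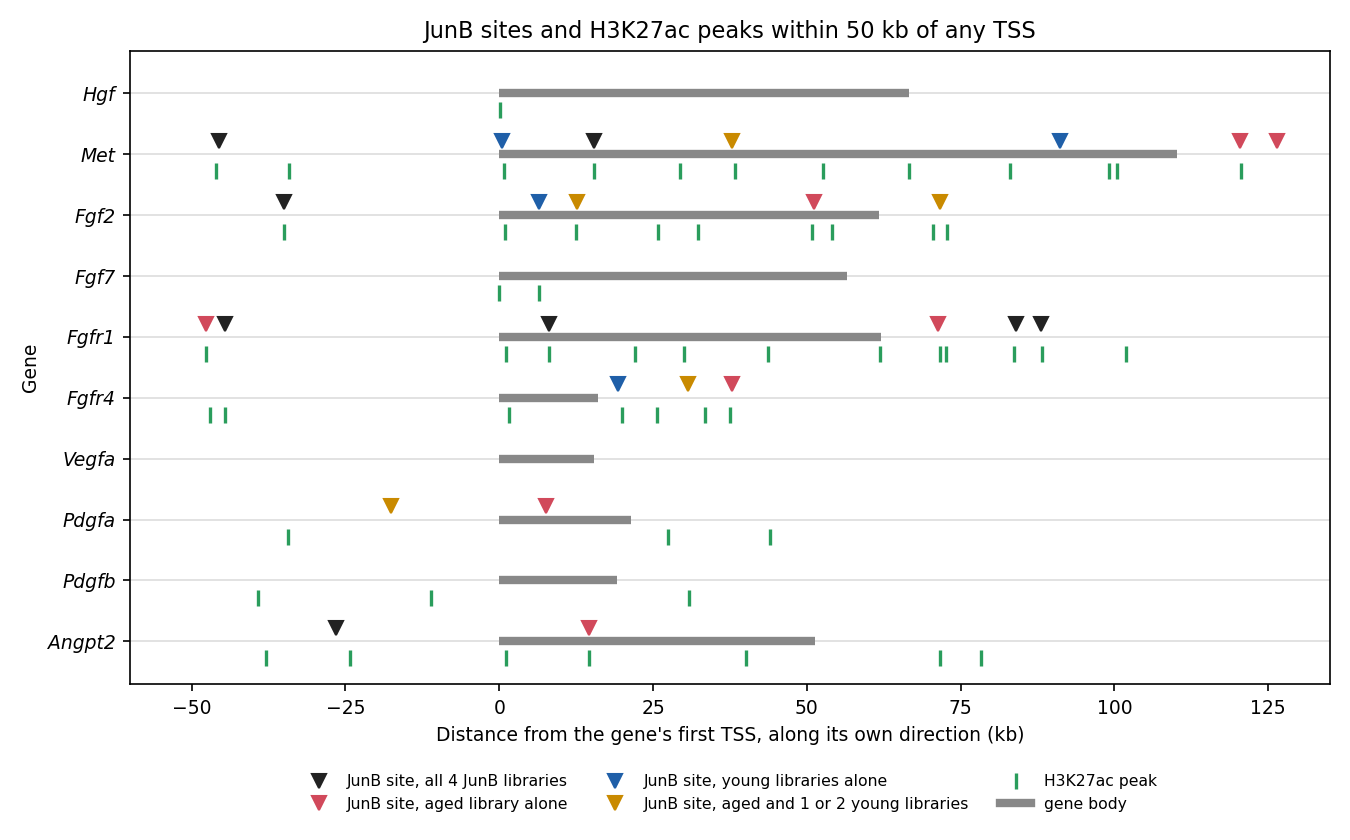
Each row is a gene, with its body in grey from its first TSS at 0 and the distance along its own direction in kb on the x axis. Triangles are summits of JunB sites coloured by the libraries that held them, and green ticks are midpoints of H3K27ac peaks. Most triangles lie over or near Met, Fgf2 and Fgfr1, and Hgf, Fgf7, Vegfa and Pdgfb have none.

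Met (ENSMUSG00000009376.15, chr6:17463800-17573980, plus strand) held the site with the highest fold enrichment of the 25. Met site 3 (chr6:17478844-17479414) lies in an intron, its summit 15375 bp past the first TSS, and overlapped an H3K27ac peak at percentile 89.9 of its list. Its fold enrichment, the pileup at the summit over the local background of the same library, was 18.1, 17.8 and 17.1 in young replicates 1, 2 and 3, against 8.28 in the aged library. The young values lay close together (17.7 ± 0.507, SD, n = 3) and the aged value was below all of them, at 0.468 of their mean. By −log10 p the same order held, at 66.0, 71.0 and 46.5 against 14.6. The rank within each list, which depends on the list's length and threshold, gave percentiles of 97.3, 95.5 and 94.5 against 87.9. Of the 8 sites in all 4 libraries, it was the only one at which the aged percentile was below each young percentile, an order seen at 12.0% of the 2468 such sites of the genome.

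The other sites of Met fell into shared, young and aged groups. Met site 1 (chr6:17418031-17418690), intergenic and 45110 bp upstream, had folds of 6.49, 6.54 and 5.35 in the young libraries against 6.41 in the aged library, so the aged value lay within the young range. The aged summit, at 17418619, lay apart from the young summits at 17418200, 17418243 and 17418256, and so from the TGANTCA match shown above. Met site 1 overlapped an H3K27ac peak at percentile 86.6. Met site 2 (chr6:17464191-17464440), in the 5′ part of the gene 84 bp from a TSS and in annotated UTR, was the only JunB peak within 3 kb of a Met TSS. It was called in young replicate 1 alone, at a fold of 5.4 and a −log10 p of 8.75, above the lowest −log10 p of 5.33 and 5.22 in the lists of young replicates 2 and 3, and it overlapped H3K27ac.

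At intronic Met site 4 the young folds, where called, were above the aged fold, and intronic Met site 5 was called in young libraries alone. Met site 4 (chr6:17501519-17501827) had folds of 5.83 in young replicate 1 and 6.84 in young replicate 3, no peak in young replicate 2, and 3.3 in the aged MuSCs, at percentile 2.89 of that list. It overlapped an H3K27ac peak at percentile 88.8. Met site 5 (chr6:17554723-17555084) had folds of 4.57, 8.59 and 7.3 in the young libraries, no peak in the aged library and no H3K27ac. The aged list reaches down to a −log10 p of 3.01, lower than the 3 young values of 6.52, 17.0 and 11.1 at Met site 5. Depth is unknown, so −log10 p values of different libraries may not share a scale. A missing peak here, or at other sites set beside list floors, does not show absent binding. Met sites 6 and 7, intergenic and 36765 and 43227 bp downstream of the last TSS, were called in the aged library alone. Site 6 (chr6:17583738-17584338) had a fold of 5.42, a −log10 p of 8.47 and H3K27ac at percentile 36.9.

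Fgfr1 (ENSMUSG00000031565.18, chr8:25513654-25575718, plus strand) was the one gene with a promoter peak in every JunB library. Fgfr1 site 3 (chr8:25521496-25522126) lies in an intron, 1659 bp past the nearest of 18 annotated TSSs and 8050 bp past the first, and overlapped an H3K27ac peak at percentile 70.4. Its folds were 7.71, 7.26 and 7.29 in the young libraries against 4.91 in the aged library. The aged fold was thus below a narrow young range (7.42 ± 0.253, SD, n = 3), while its percentile of 61.8 lay among the young ones (74.4, 45.1 and 32.4). Near the first Fgfr1 TSS, 565 bp away, lay an H3K27ac peak at percentile 83.3 with no JunB peak.

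The strongest peak of the 25 sites by −log10 p was at Fgfr1 site 5 (chr8:25597278-25597912), 27555 bp past the last Fgfr1 TSS. It spans a TSS of Letm2, which encodes a mitochondrial membrane protein, and its summit is in an exon of D830025C05Rik, so it is a promoter site of that neighbour as well as a distal site of Fgfr1. Its folds were 17.3, 10.2 and 13.6 in the young libraries (13.7 ± 3.57, SD, n = 3) against 7.29 in the aged library. The aged fold was below each young fold, but the aged peak ranked at percentile 94.4 of its list, within the young range of 85.6 to 98.4. The H3K27ac peak there was at percentile 94.0, the highest near the 10 genes.

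Fgfr1 site 6 (chr8:25601344-25602143), at a TSS of the histone methyltransferase gene Nsd3, moved the other way. Its folds were 4.38, 5.45 and 4.77 in the young libraries against 6.96 in the aged library, 1.43 of the young mean. Its percentiles were 62.3, 41.7 and 9.16 in the young libraries against 92.9 in the aged library, and the aged summit lay apart from the young summits, at 25601726 against 25601982, 25602004 and 25602029. The aged value was outside the young range on each scale. Fgfr1 site 2 (chr8:25467937-25469301), 44353 bp upstream in an intron of Gm31045, had folds of 4.81, 5.54 and 6.06 against 5.05, within the young range, and no H3K27ac. Its summits were scattered over 714 bp.

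Both remaining Fgfr1 sites were called in the aged library alone and overlapped H3K27ac. Fgfr1 site 1 (chr8:25465741-25466379), 47275 bp upstream, had a fold of 4.24. Fgfr1 site 4 (chr8:25584881-25585212), 15158 bp past the last TSS and in an exon of Letm2, had a fold of 5.71.

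Fgfr4 (ENSMUSG00000005320.9, chr13:55152640-55168759, plus strand) had no JunB promoter peak, and its 3 sites were all downstream and intergenic. Fgfr4 site 1 (chr13:55171735-55172072), 15618 bp from the nearest TSS, was young alone, with folds of 8.18 and 9.77 in young replicates 1 and 2 and no H3K27ac. Its −log10 p values, 15.8 and 23.3, were well above the floors of the lists of young replicate 3 and the aged library, neither of which had a peak there. Weaker binding in those libraries was not detectable from the lists. Fgfr4 site 2 (chr13:55182543-55183437) had a fold of 5.39 in young replicate 2 and 5.01 in the aged MuSCs, with no H3K27ac, its summits lay 720 bp apart, and its strongest summit window was 100% repeat-masked. Fgfr4 site 3 (chr13:55190048-55190648) was aged alone, with a fold of 5.29 and H3K27ac at percentile 58.5. Sites 2 and 3 lie nearer to a TSS of Nsd1 than to one of Fgfr4.

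Fgf2 (ENSMUSG00000037225.13, chr3:37348346-37410108, plus strand) was the ligand gene with the most sites, 5, of which 4 overlapped H3K27ac. Fgf2 site 1 (chr3:37312597-37313931) lies 34415 bp upstream and spans a TSS of the centrin gene Cetn4. It had folds of 6.2, 7.38 and 6.71 in the young libraries (6.76 ± 0.593, SD, n = 3) against 7.71 in the aged library, which was above each young value by less than the young range. Fgf2 site 3 (chr3:37360805-37361172), in an intron, had folds of 9.93 in young replicate 1 and 6.11 in the aged MuSCs, and H3K27ac at percentile 71.4. Its −log10 p in young replicate 1, 22.4, was far above the floors of the lists of young replicates 2 and 3, which had no peak there. By calls, the young libraries thus differed from each other, while young replicate 1 and the aged library both had a peak.

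Fgf2 site 5 (chr3:37419402-37420225), 14861 bp past the last Fgf2 TSS, spans a TSS of Nudt6, the gene antisense to Fgf2. It had folds of 4.98 in young replicate 1 and, at the aged site, 5.48. Fgf2 site 4 (chr3:37399432-37399691), in an intron, was aged alone at a fold of 4.04 and a −log10 p of 5.24, below the 5.33 that the list of young replicate 2 starts from, and overlapped H3K27ac at percentile 75.8. No Fgf2 site other than site 1 was called in young replicates 2 or 3.

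Pdgfa (ENSMUSG00000025856.15, chr5:138976014-138997370, minus strand) had 2 sites, neither with H3K27ac. Pdgfa site 1 (chr5:139014942-139015517), intergenic and 17572 bp upstream, had folds of 7.08 and 5.67 in young replicates 1 and 2, against 5.45 in the aged MuSCs, just under the young values. Its nearest coding TSS belongs to Prkar1b, a regulatory subunit of protein kinase A.

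Angpt2 (ENSMUSG00000031465.6, chr8:18690263-18741562, minus strand), which lies inside the gene Mcph1, also had 2 sites. Angpt2 site 1, 26168 bp upstream in an intron of Mcph1, was the third strongest of the 25 by fold, at 12.5, 11.0 and 12.8 in the young libraries (12.1 ± 0.918, SD, n = 3) against 8.34 in the aged library. It overlapped no H3K27ac peak although it was called in every JunB library. The aged fold was 0.689 of the young mean and below each young fold, and the aged percentile of 90.9 lay within the young range of 73.4 to 91.3. Angpt2 site 2 (chr8:18726820-18727126), in an intron of both genes, was aged alone at a fold of 6.04 and lay in an H3K27ac peak at percentile 89.8.

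The 3 sites in 1 library without H3K27ac were Met site 7, Fgf2 site 2 and Pdgfa site 2, at folds of 4.67, 4.76 and 3.92.

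No JunB peak lay within 50 kb of Hgf, Fgf7, Vegfa or Pdgfb in any list, and at Vegfa no H3K27ac peak did either. These zeros cover only the rows of the lists analysed here. The nearest to Pdgfb (chr15:79995874-80014977) was 62139, 199080 and 73249 bp away in the young libraries, against 68468 bp in the aged MuSCs. For Vegfa (chr17:46016993-46032369) the nearest were 88695, 128023, 128154 and 127630 bp away in the same order, and for Fgf7 (chr2:126034658-126091185) 159593, 503570, 503589 and 111096 bp. Hgf (chr5:16553495-16620152) was the most remote, with 195993 bp in young replicate 1, 4590441 and 4456984 bp in replicates 2 and 3, and 483308 bp in the aged MuSCs. With no peak in the window in any list, these 4 genes allow no comparison of young with aged libraries. The lists give no read counts, so weaker binding at these genes was not detectable from them.

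H3K27ac lay within 3 kb of a TSS of 7 of the 10 genes (49.8% of all protein-coding genes) and within 50 kb of 9 (76.6%), Vegfa being the exception. Met and Fgfr1 had 12 peaks each, a number reached by 1.5% of genes, Fgf2 had 9, Fgfr4 and Angpt2 7 each, Pdgfa and Pdgfb 3 each, Fgf7 2 and Hgf 1. These counts were not corrected for the wider windows of Met, Fgf2 and Fgfr1. The total of 56 peaks fell to 49 with TSSs of protein-coding transcripts only. It fell to 40 where the nearest protein-coding TSS had to be one of these genes. The promoter peaks of the ligand genes Hgf and Fgf7 were weak, at percentiles 1.76 and 19.7 of the list, and Pdgfa and Pdgfb had distal peaks only, none above percentile 44.6. Of the 56 peaks, 16 overlapped a JunB site, which is 28.6% against 20.1% of all 39492 H3K27ac peaks. Their median percentile was 64.5, against 26.0 for the 40 others; over the genome these medians were 67.3 and 45.8.

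**Figure D3:**
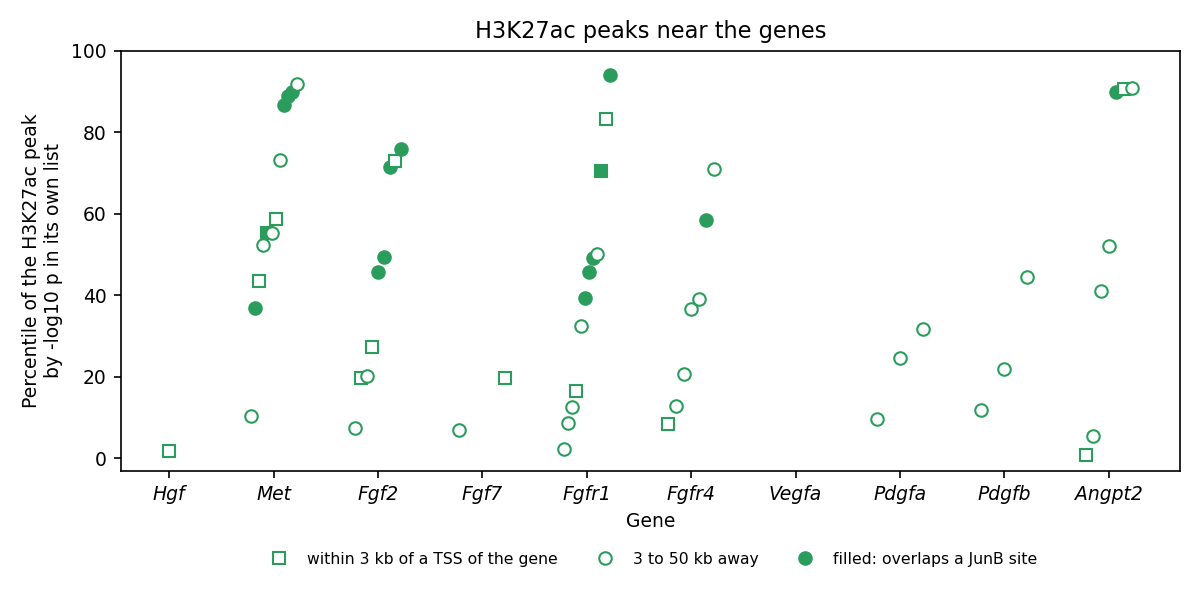
Each symbol is an H3K27ac peak within 50 kb of the gene on the x axis, at its percentile by −log10 p among all peaks of the list on the y axis. Squares lie within 3 kb of a TSS of the gene and filled symbols overlap a JunB site. Strong peaks stand at Met, Fgf2, Fgfr1, Fgfr4 and Angpt2, and filled symbols begin at percentile 36.9.

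Seen from the JunB side, 16 of the 25 sites overlapped H3K27ac, 64.0% (exact 95% interval 42.5 to 82.0) against 42.6% of all JunB sites. All 7 sites within 3 kb of a TSS of any gene did so, against 60.8% of such sites in the genome, and 9 of the 18 farther away, 50% against 32.0%. Of these 7 sites, 2 lay within 3 kb of a TSS of Met or Fgfr1, and the other 5 lay at Letm2, Nsd3, Cetn4 and Nudt6, neighbours of Fgfr1 and Fgf2. By place, 9 of the 25 summits lay in introns of the 10 genes and 7 were intergenic. The shares of all JunB sites by place are not given here, so these counts only describe position. The intervals cover counting error of sites only, and sites near a gene are not independent of each other.

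Sharing between libraries is given beside the same share over all JunB sites, with no test. Of the 25, 15 (60%) were in at least 2 libraries, against 34.2% of all JunB sites, and 8 (32.0%, exact 95% interval 14.9 to 53.5) were in all 4, against 13.1%. These 8 were Met sites 1 and 3, Fgfr1 sites 2, 3, 5 and 6, Fgf2 site 1 and Angpt2 site 1. Another 8 (32.0%, interval 14.9 to 53.5) were in the aged library alone, against 45.0%, and 4 (16.0%, interval 4.54 to 36.1) in young libraries alone, against 25.8%. This balance of aged-alone and young-alone sites turned when the lists were cut to equal length. The sites were wider than most, with a median of 571 bp against 342 bp, and width and sharing are not independent, since a site is the union of its peaks.

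The aged library held 21 of the 25 sites and the young libraries 16, 12 and 10 (12.7 ± 3.06, SD, n = 3). Measured against the length of each list the order turned, with these sites making up 0.15% of the aged sites and 0.171%, 0.251% and 0.266% of the young ones. The 8 aged-alone sites had folds from 3.92 to 6.04 and percentiles from 16.6 to 71.5 in the aged list, with a median of 63.4 against 35.1 for all aged-alone sites. Of the 8, 6 overlapped H3K27ac (75%, against 36.0% of all aged-alone sites) and 6 passed the highest of the 4 lists' lowest −log10 p, 5.33. None of the 8 was among the 3863 strongest peaks of the aged list (aged ranks 4011 to 11762), 3863 being the length of the shortest list. With every list cut to that length the balance turned, with 6 of 14 sites in young libraries alone and 1 in the aged library alone, and with 10 sites in each young library against 8 for the aged mice. Of the 4 young-alone sites, 1 overlapped H3K27ac (25%, against 28.1%).

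**Figure D4:**
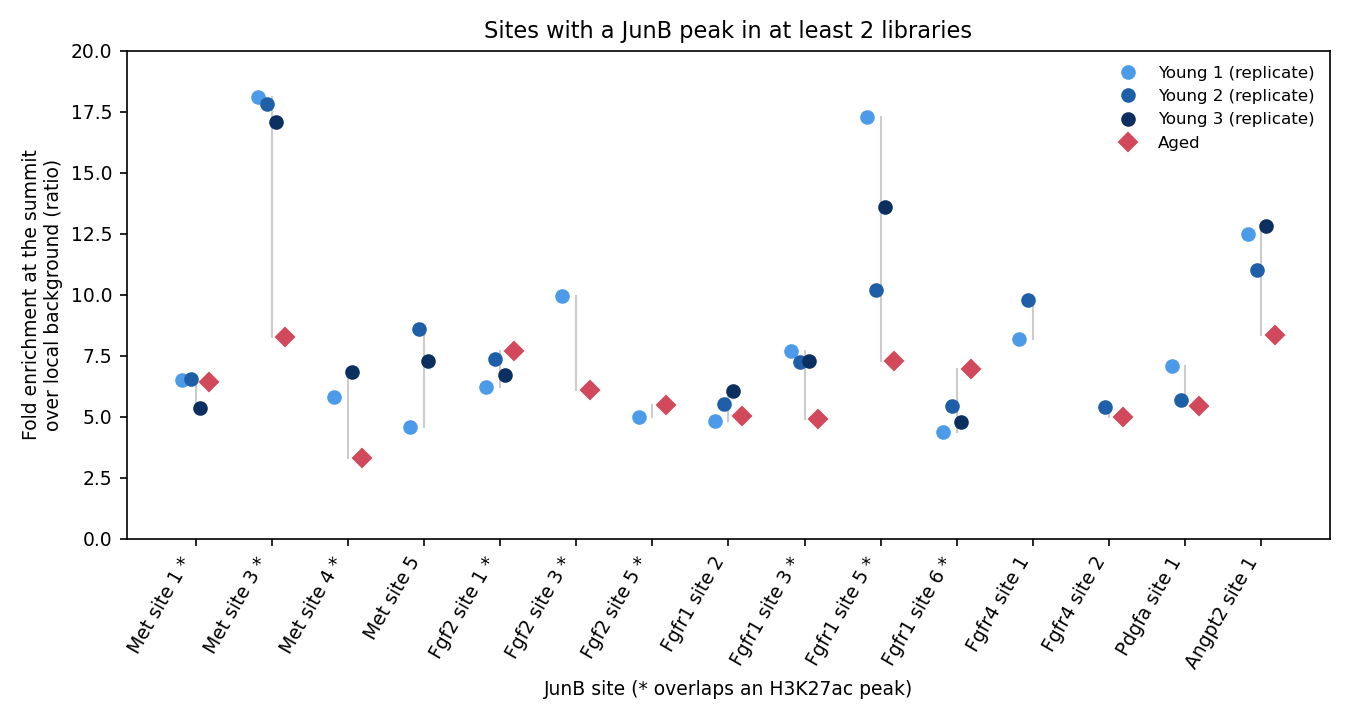
Fold enrichment at the summit (y axis, linear from 0) is shown for the 15 sites with a JunB peak in at least 2 libraries, with circles for the 3 young libraries, diamonds for the aged library and an asterisk where the site overlaps H3K27ac. The diamond lies far below the young circles at Met site 3. It is also below them at Angpt2 site 1, Fgfr1 sites 3 and 5, Met site 4, Fgf2 site 3, Fgfr4 site 2 and Pdgfa site 1. It is above them at Fgfr1 site 6 and Fgf2 sites 1 and 5.

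At the 8 sites in all 4 libraries, the aged fold was below each young fold at 4 (Met site 3, Angpt2 site 1 and Fgfr1 sites 3 and 5), against 62.7% of such sites in the genome. The ratio of the aged fold to the young mean had a median of 0.806 (range 0.468 to 1.43), and over the genome it was 0.772 with quartiles of 0.632 and 0.936. The medians were thus close, with Met site 3 and Fgfr1 site 5 (0.531) below the lower quartile and Met site 1 (1.05), Fgf2 site 1 (1.14) and Fgfr1 site 6 above the upper one. On the percentile scale the aged value was above each young value at 4 sites (Fgf2 site 1, Met site 1 and Fgfr1 sites 2 and 6). The share of such sites in the genome with this order is not given here, so the count has no background. Median folds of whole lists were 5.2, 7.74 and 8.11 in the young libraries against 4.93 in the aged library, and the aged list holds more weak peaks, which raises percentiles. With 1 aged library, age and library cannot be told apart, and no test between ages was possible.

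The letters of the 25 sites were set beside those of all JunB sites. TGANTCA was within 50 bp of the summit at 1 site (4.0%, against 5.54% of all JunB sites). It was anywhere in the site at 14 (56.0%, against 31.6%), but in sites that were wider, and among the sites in all 4 libraries the shares were 62.5% and 68.4%. By gene, 5 of the 7 Met sites and 3 of the 5 Fgf2 sites held a match, but 1 of the 6 Fgfr1 sites did. In the summit windows of 50 bases on either side, TGACGTCA was in 0 of 25 (0.228% of all), CAGCTG in 3 (12.0%, against 5.95%), GGGCGG in 1 (4.0%, against 6.67%) and CCAAT in 2 (8.0%, against 13.3%). Median GC content of the windows was 52.5% against 48.5%, and repeats filled at least 50% of the window at 4 sites (16.0%, against 22.7%), namely Met sites 1 and 3, Fgfr1 site 4 and Fgfr4 site 2.

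Among 50 other genes of these pathways, JunB promoter peaks lay at 9 in any library (18%, against 25.8% of all genes), at 4, 1 and 1 in the young libraries (11.0%, 7.74% and 5.9% of all genes) and at 8 in the aged MuSCs (23.9% of all genes). By role, 2 of 29 ligand genes, 5 of 14 receptor genes and 2 of 7 adaptor and processing genes had one. Grb2, the adaptor that links receptor tyrosine kinases to RAS, was the only gene with a promoter peak in at least 3 JunB libraries. The share of all protein-coding genes that pass this rule is not given here. Its folds were 4.57, 5.93 and 7.3 in the young libraries, the peak of young replicate 2 lying at another position (chr11:115707753-115708001) than those of replicates 1 and 3 (chr11:115696546-115696977 and chr11:115696588-115696840), and the aged library had none. H3K27ac lay at 19 promoters of the 50, or 38.0%, below the 49.8% of all genes.

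The lists were of unequal length and threshold. JunB peaks numbered 9534, 4884 and 3863 in the young libraries against 14123 in the aged library, and the lowest −log10 p was 3.01, 5.33, 5.22 and 3.01. As a check of the cell type, H3K27ac lay within 3 kb of 6 of 9 MuSC markers (Myod1, Vcam1, Itga7, Cdh15, Chodl and Sdc4, but not Pax7, Myf5 or Calcr), against 49.8% of all genes. It also lay at 1 of 3 endothelial markers (Pecam1) and 1 of 3 fibro-adipogenic markers (Dpt), and at 0 of 3 blood, 0 of 2 mural and 0 of 3 myofibre markers. JunB promoter peaks in any library lay at 5 of 9 MuSC, 2 of 3 fibro-adipogenic and 1 of 3 blood markers. The share of all genes was 25.8%. They lay at 0 of the endothelial, mural and myofibre markers. Those at Myod1, Dpt and the macrophage gene Cd68 were in all 4 JunB libraries, and the share of all genes for this is not given here. The fibro-adipogenic and blood counts rest on 1 or 2 genes. The part of other cells in the peaks at these genes was not tested.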

How the data were processed

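Peaks called from CUT&RUN-seq of mouse MuSCs were used, from 3 JunB libraries of the Young group, 1 of the Aged group and 1 H3K27ac library. Per the submitters' processing notes, the authors used Bowtie2, MACS2 and mm10. Versions and a control library are not given in the sources used here. Peaks were deposited per library. Each deposited peak has a fold enrichment (a ratio of pileup to local background), −log10 values of p and of q, and a score. The score deposited by the authors is 10 times the −log10 p (aged library, young replicate 1) or the −log10 q (the other lists), and was not used. Read counts are not among the columns, and depth per peak is therefore unknown.

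JunB peaks that overlapped or touched were merged into sites. The library's strongest peak gave a site's value, and a peak's percentile is its rank by −log10 p within its list. Distances run to the nearest TSS of any GENCODE M21 transcript, with promoters within 3 kb and the window at 50 kb. H3K27ac overlap needed 1 bp. Sequences and motif matches came from the RefSeq copy of GRCm38, whose coordinates are those of mm10 (0 peaks ran past a chromosome end). All 10 genes were described, with values for each promoter site, each site in at least 2 libraries and each site in 1 library that overlapped H3K27ac. Other pathway genes were named for promoter peaks in at least 3 JunB libraries. The sequence of 1 site is not reported here. The 27-base sequences were added after the values were seen. The genes and lists were chosen with earlier results of these data known. No model was fitted, since 1 aged library and no counts allow no test. Shares are given beside those of all genes or sites, with exact (Clopper-Pearson) 95% intervals for counting error only. Overlaps and merging were checked on simulated data against bedtools 2.31.1. Distances were checked there against direct computation over all simulated TSSs, and motif searches against planted copies of the AP-1 motif. Python 3.11.15, numpy 2.4.6, pandas 2.3.3 and scipy 1.17.1 were used.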

Additional observations from a re-analysis of the deposited data

How the results depend on the processing

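Of 78 alternative values for counts over all 10 genes, 58 stayed within 1.5 times the value reported. Of 254 alternative values in all, 26 for single genes, single libraries or H3K27ac peaks also moved further. Among them were the site counts of Fgfr1, Fgf2, Fgfr4 and Pdgfa given above. With a promoter limit of 1 kb, 0 genes had an aged promoter peak (1 reported) and 1 a young one (2 reported), and with 5 kb 3 had an aged one. With a window of 25 kb there were 14 sites, 9 of them with H3K27ac, 2 in all 4 libraries and 4 aged alone, and with 100 kb 7 were young alone. With each list cut to its 3863 strongest peaks, 0 genes had an aged and 1 a young promoter peak, and there were 14 sites, 8 with H3K27ac and 1 aged alone. The strongest 50% of the H3K27ac peaks overlapped 10 sites. Where the nearest protein-coding TSS had to be one of these genes, 10 sites had H3K27ac and 5 were in all 4 libraries. Where a young peak needed at least 2 young libraries, 1 gene had a young promoter peak and 2 sites were young alone. Leaving out each young library in turn gave 1 to 2 genes with a young promoter peak and 2 to 4 young-alone sites, and the lower values came without young replicate 1, whose peak at Met site 2 was the only Met promoter peak. These alternatives change which peaks or genes are counted, by construction, and no other cause was tested. The common −log10 p of 5.33, a −log10 q of at least 2, a merge gap of 200 bp and overlap of 50% of the smaller peak moved none of the counts over all 10 genes by more than 1.5 times (the last was applied to site counts after seeing the data). No paired analysis was possible because there is 1 aged library and no test. Peak lists without read counts limit what can be said of absent or weak peaks.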
